A study of Mus musculus with 173 samples.

Results

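The genes described here are 30 myelin and mature oligodendrocyte genes of the mouse. They were chosen by name from what is known of myelin, with earlier results of these data known. The 2 tables of the survey list 38561 genes by Ensembl identifier, and each of the 30 matched 1 identifier. By role they are 16 proteins of myelin and its membrane (Mbp, Mag, Mog, Mobp, Cnp, Mal, Cldn11, Tspan2, Pllp, Opalin, Ermn, Gjb1, Tmem88b, Plekhb1, Bcas1 and Ninj2), 5 enzymes of myelin lipid synthesis and metabolic support (Aspa, Ugt8a, Gal3st1, Fa2h and Enpp6), 5 transcription factors (Myrf, Sox10, Olig1, Olig2 and Nkx6-2), and 4 secreted, matrix or receptor genes (Trf, Hapln2, Gpr37 and Adamts4).

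The survey asked how tissues of a Huntington's disease mouse model differ from wild type. The data are 173 RNA-seq libraries of polyadenylated RNA, 80 of them from brain, made from 11 tissues of 16 mice. The mice had a C57BL/6 background and were 6 months old. Of the mice 8 were heterozygous for Q175, a knock-in allele of the mouse huntingtin gene with a CAG repeat length of 175, and 8 were wild type, and each genotype had 4 females and 4 males. The 5 brain regions are corpus callosum, brainstem, hypothalamus/thalamus, hippocampus and cerebellum, and the other 6 tissues are brown, gonadal and intestinal adipose tissue, gastrocnemius muscle, heart and skin. Each group holds 8 libraries except wild-type gonadal adipose tissue with 7 and wild-type skin with 6. Animals of the Q175 line shared cages among themselves. The wild-type animals lived with the Q20 line and bear codes of that line, although the series design calls the controls littermates. Genotype, housing and colony therefore cannot be told apart in any comparison below. Library totals ran from 27978166 to 48018644 counts, with at most 39713633 in brain.

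Oligodendrocytes are the cells that wrap axons of the brain and spinal cord in myelin, a stack of membrane rich in cholesterol and galactolipids and held together by a small set of abundant proteins. They form from precursor cells under transcription factors such as Olig2, Sox10 and Myrf, and white matter tracts such as the corpus callosum are packed with them. In peripheral nerves the same function belongs to Schwann cells, which share Mbp, Mag, Mal, Gjb1 and Sox10 with oligodendrocytes.

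The promoters of 5 genes whose values carry the results, and of Opalin, the gene with the widest gap between regions, are shown because the first 4 fell together in 3 regions of Q175 mice while Olig2 rose in brainstem and hippocampus. RefSeq promoter windows of GRCm38.p6, each with 250 bases before and 50 bases after an annotated start, were found for 22 of the 30 genes, 31 windows in all. Capitals mark matches on either strand to 3 motifs: ACAAAG, the core that SOX factors bind, CTGGNAC, the motif of Myrf, and CAGCTG, an E-box of the kind that Olig factors bind. Sequences run 5′ to 3′ on the strand of the gene.
Mal (chr2:127656646-127656945, minus strand): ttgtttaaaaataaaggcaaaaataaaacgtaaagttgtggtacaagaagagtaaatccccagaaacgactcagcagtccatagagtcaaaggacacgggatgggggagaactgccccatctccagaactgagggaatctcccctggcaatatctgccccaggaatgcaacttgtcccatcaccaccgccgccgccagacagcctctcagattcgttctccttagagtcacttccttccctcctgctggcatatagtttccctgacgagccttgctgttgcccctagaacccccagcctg
Mobp (chr9:120149492-120149791, plus strand): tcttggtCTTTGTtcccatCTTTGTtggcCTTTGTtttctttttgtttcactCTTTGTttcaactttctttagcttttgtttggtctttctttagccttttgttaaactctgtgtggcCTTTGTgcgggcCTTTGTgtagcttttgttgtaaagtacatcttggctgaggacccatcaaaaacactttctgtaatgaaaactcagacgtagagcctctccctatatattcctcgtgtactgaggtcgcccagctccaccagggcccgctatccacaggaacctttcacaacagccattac
Aspa (chr11:73324588-73324887, minus strand): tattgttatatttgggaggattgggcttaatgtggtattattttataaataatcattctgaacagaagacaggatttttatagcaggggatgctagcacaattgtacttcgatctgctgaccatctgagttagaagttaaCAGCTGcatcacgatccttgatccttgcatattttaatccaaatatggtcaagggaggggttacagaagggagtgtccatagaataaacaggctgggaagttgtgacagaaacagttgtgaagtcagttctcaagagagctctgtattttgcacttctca
Ugt8a (chr3:125938603-125938902, minus strand): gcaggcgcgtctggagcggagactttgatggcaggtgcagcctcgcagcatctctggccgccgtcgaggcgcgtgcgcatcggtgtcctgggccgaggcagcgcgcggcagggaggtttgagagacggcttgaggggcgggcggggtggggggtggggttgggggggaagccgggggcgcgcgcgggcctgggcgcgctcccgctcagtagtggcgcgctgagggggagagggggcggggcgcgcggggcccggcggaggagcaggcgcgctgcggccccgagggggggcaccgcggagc
Olig2 (chr16:91225300-91225599, plus strand): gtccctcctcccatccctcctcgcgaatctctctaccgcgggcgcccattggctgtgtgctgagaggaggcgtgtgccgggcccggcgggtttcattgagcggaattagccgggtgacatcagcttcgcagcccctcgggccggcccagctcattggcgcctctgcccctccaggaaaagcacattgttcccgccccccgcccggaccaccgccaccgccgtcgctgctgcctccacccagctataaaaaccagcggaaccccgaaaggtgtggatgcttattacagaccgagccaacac
Opalin (chr19:41077064-41077363, minus strand): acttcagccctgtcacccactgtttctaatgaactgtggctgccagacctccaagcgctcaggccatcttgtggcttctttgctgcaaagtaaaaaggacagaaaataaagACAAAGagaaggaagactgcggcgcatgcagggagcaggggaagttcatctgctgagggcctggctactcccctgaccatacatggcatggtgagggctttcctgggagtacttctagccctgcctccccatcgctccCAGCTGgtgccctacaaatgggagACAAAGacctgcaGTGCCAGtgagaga
Mobp had 6 matches to ACAAAG, the Mal, Ugt8a and Olig2 windows had no match to any of the 3 motifs, and Aspa had 1 to CAGCTG. Opalin had 2 matches to ACAAAG and 1 to each of the others. Over the 22 genes, 7 (31.8%) had a match to ACAAAG, 8 (36.4%) to CTGGNAC and 4 (18.2%) to CAGCTG, while over all 27025 genes with a window the shares were 21%, 21.4% and 18.3%. The windows differed in base composition, from 39% G and C in Aspa to 78.3% in Ugt8a, with a median of 56% over the 31 windows and 52.7% over all windows.

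In wild-type mice the 30 genes were highest in corpus callosum, 30 of 30, and second highest in brainstem, 30 of 30. Levels between genes are compared as FPKM, the fragments per length of gene scaled to library size, as deposited by the authors. Mbp, a main structural protein that holds the membrane layers of myelin together, had 10902 ± 2794 FPKM in corpus callosum (mean ± SD, n = 8), 4477 ± 573 in brainstem, 1765 ± 387 in hypothalamus/thalamus, 1092 ± 82.4 in cerebellum and 929 ± 165 in hippocampus. Mobp, another small basic protein of compact myelin, followed at 3213 ± 730.1 FPKM in corpus callosum. The next in order there were Plekhb1 at 1153 ± 286, the iron carrier Trf at 939.9 ± 247 and Cnp, an enzyme of the myelin cytoplasm, at 913 ± 220.5 FPKM. The ranges of mean ± SD of these 3 overlapped, and their order within each library was not tested. Lowest was Ninj2, an adhesion protein, at 14.1 ± 4.48 FPKM.

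Each of the 30 genes was lower in brainstem, hypothalamus/thalamus, hippocampus and cerebellum than in corpus callosum of the same wild-type animals, 120 of 120 tests (edgeR with the animal as a term, adjusted p at most 5.25e-06). Of all genes tested, 43.7% were lower in brainstem than in corpus callosum, 41.7% in hypothalamus/thalamus, 39.4% in hippocampus and 42.5% in cerebellum. The median fold was 2.81 in brainstem, 5.74 in hypothalamus/thalamus, 10.96 in hippocampus and 9.48 in cerebellum. Bulk tissue was measured, so fewer oligodendrocytes and less RNA per oligodendrocyte cannot be told apart in these values or in those that follow. The third place was held by hypothalamus/thalamus for 29 genes, and the lowest place by hippocampus for 20 and by cerebellum for 10.

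The gap was widest for Opalin, a membrane protein of oligodendrocytes, which had 139 ± 45.2 FPKM in corpus callosum, 22.6 ± 4.31 in brainstem and 6.31 ± 1.19 in cerebellum. Its level in cerebellum was 23.98-fold lower than in corpus callosum (log2 difference -4.58 ± 0.14). The narrowest gaps were those of the gap junction gene Gjb1 in brainstem (1.70-fold lower), of Olig1 in hypothalamus/thalamus (3.13-fold), of Olig2 in hippocampus (5.02-fold) and of Adamts4 in cerebellum (4.77-fold). The lineage factors Olig1 and Olig2, which precursor cells express too, were thus closer to their callosal level in hippocampus than most of the myelin genes were.

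**Figure D1:**
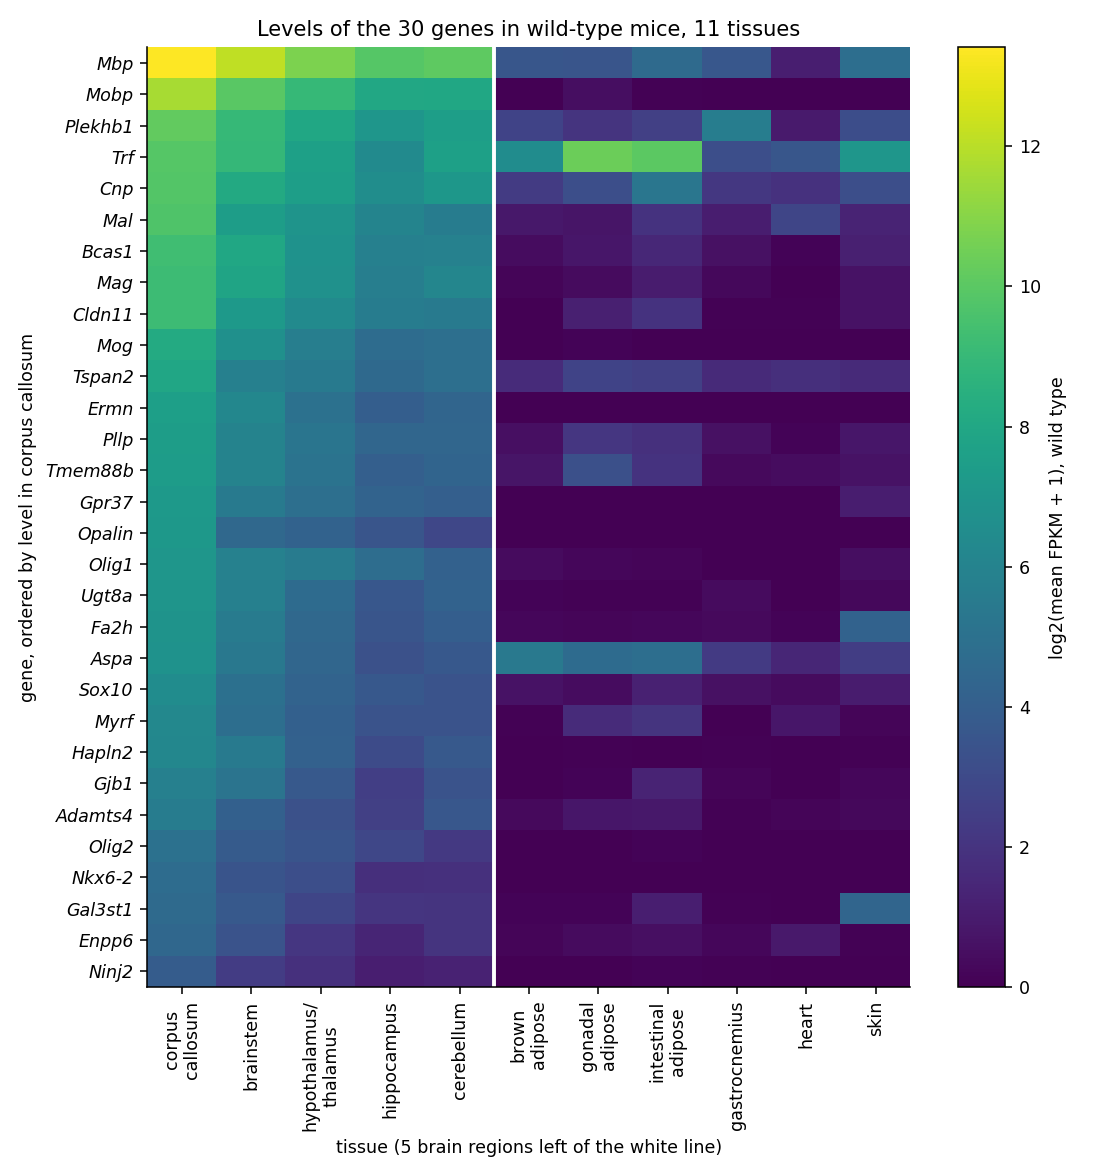
Heat map of log2(mean FPKM + 1) of the 30 genes (rows, ordered by level in corpus callosum) in wild-type mice across the 11 tissues (columns, 5 brain regions left of the white line). The corpus callosum column is the brightest of the brain columns in 30 of 30 rows, and outside the brain 18 rows reach 1 FPKM in at least 1 tissue, Trf, Aspa, Mbp, Plekhb1 and Cnp among them.

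Between genotypes the 30 genes did not move as a block. In brainstem 7 were lower and 5 higher in Q175 mice (edgeR, adjusted p under 0.05), where 3.07% of all genes tested were called, 1% lower and 2.07% higher. In cerebellum 22 were lower and 0 higher, against 16.1% of genes called, 8.11% lower and 7.94% higher. Hypothalamus/thalamus had 8 lower and 0 higher, against 0.574% called, 0.466% lower and 0.108% higher. Hippocampus had 0 lower and 3 higher, against 4.56% called, 2.6% lower and 1.96% higher.

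In corpus callosum, where the genes are most abundant, 0 of 30 were called by edgeR or DESeq2, against 0.0544% of all genes by edgeR, and 2 had an unadjusted p under 0.05, Olig1 and Olig2, against 19% of all genes. The spread between callosal libraries was wide: summed over the 30 genes, the libraries ran from 36783 to 63900.2 CPM in Q175 mice and from 29960 to 66194 CPM in wild type. Summed transcripts of 15 general neuron genes were between 1054 and 4686 CPM in the callosal libraries of Q175 mice and between 2402 and 5470.3 CPM in those of wild type. Meningeal fibroblast genes summed to between 79.4 and 984 CPM in Q175 and between 95.5 and 206 CPM in wild type. By gene, 14 of the 15 neuron genes had a log2 change below 0 in Q175 mice (median -0.541), and so had 10 of 10 excitatory forebrain neuron genes (median -0.688). Of 10 meningeal fibroblast genes 0 were below 0 (median 1.32). The median over all genes tested was 0.0014. By edgeR 0 genes of these lists were called, and 10, 5 and 9 had an unadjusted p under 0.05, in that order. The part of these cell types in the callosal result was not tested.

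The median log2 change of the 30 genes, Q175 minus wild type, was -0.242 in cerebellum, -0.310 in hypothalamus/thalamus, -0.0049 in brainstem, 0.211 in hippocampus and 0.113 in corpus callosum, where the medians over all genes tested were -0.0049, 0.0074, -0.0021, 0.012 and 0.0014. All 30 passed the filter on low counts in each brain region. The 22 genes called in cerebellum hold 13 of the 16 membrane proteins, 3 of the 5 enzymes, 2 of the 5 transcription factors and 4 of the 4 secreted, matrix and receptor genes. In brainstem the membrane proteins gave 4 lower and 2 higher calls, the enzymes 3 lower and 1 higher, and the transcription factors 0 lower and 2 higher. In a fit of all 80 brain libraries with 1 shared spread (limma voom) the calls fell to 4 in brainstem, against 1.49% of all genes, and to 6 in cerebellum, against 3.07%. By that fit 10 were called in hypothalamus/thalamus (2.32% of all genes), 2 in hippocampus (1.76%) and 2 in corpus callosum (20.8%), the last a smaller share than that of all genes. Those left in brainstem were Mal, Tspan2, Aspa and Olig2, and among those lost were Bcas1 (adjusted p = 0.208) and Olig1 (adjusted p = 0.144). In hippocampus Olig1 and Gjb1 passed that fit and Olig2 did not (adjusted p = 0.0997). The 2 genes called by it in corpus callosum were Olig2 and Olig1, both higher in Q175 mice (adjusted p = 0.00276 and 0.0129).

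**Figure D2:**
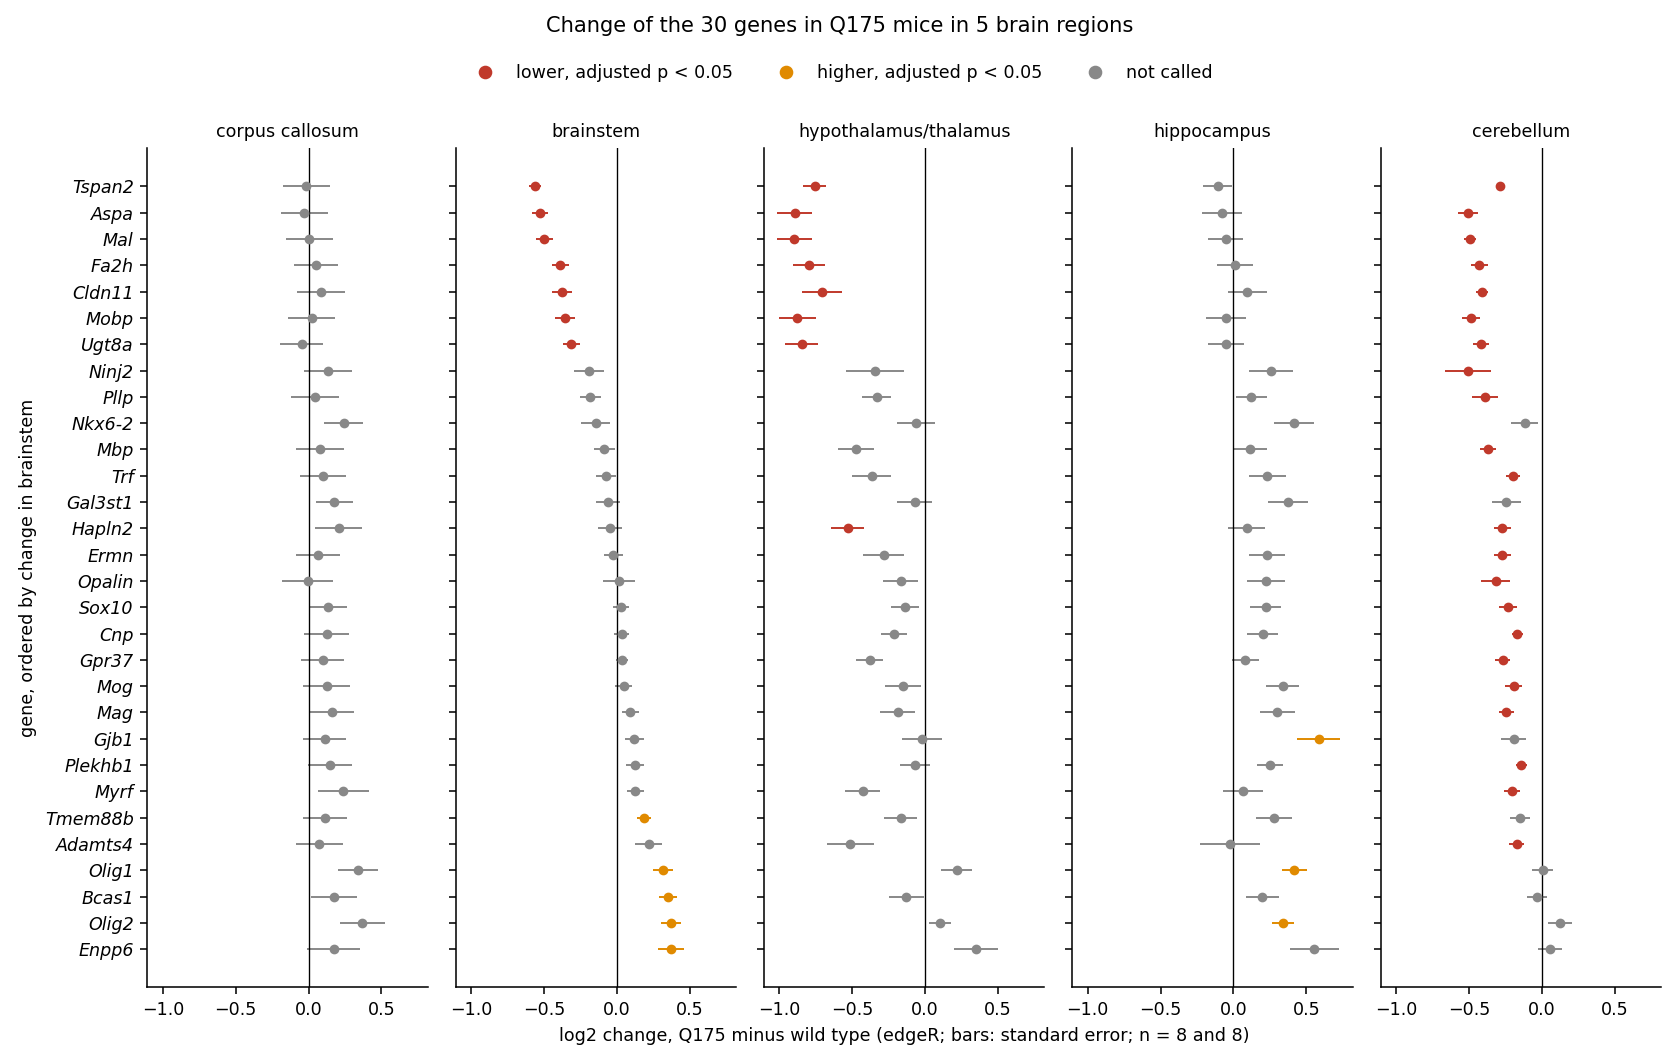
Log2 change of Q175 minus wild type with its standard error (x axis) for the 30 genes (y axis, ordered by the change in brainstem) in 5 brain regions, 8 libraries per genotype. The 7 genes at the top are called lower in brainstem, hypothalamus/thalamus and cerebellum and lie near 0 in corpus callosum and hippocampus, and Olig1 and Olig2 near the bottom are called higher in brainstem and hippocampus.

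The 7 genes called lower in brainstem were Mobp, Mal, Cldn11, Tspan2, Aspa, Ugt8a and Fa2h. The same 7 were called lower by edgeR in cerebellum, where they are 31.8% of the calls, and in hypothalamus/thalamus, where they are 87.5% of the calls. By the limma voom fit all 7 passed in hypothalamus/thalamus. In brainstem Mobp, Cldn11, Ugt8a and Fa2h did not pass that fit (adjusted p = 0.234, 0.176, 0.248 and 0.0722). Tspan2 did not pass it in cerebellum (adjusted p = 0.088), so only Mal and Aspa passed it in all 3 regions. The regions come from the same 16 animals, so the sets of calls in the 3 regions are not independent of each other. Single-gene levels below are CPM, counts scaled to library size by TMM, given as the lowest, median and highest of 8 libraries.

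Mal (ENSMUSG00000027375), a proteolipid of compact myelin that sorts membrane lipids, had 290.1, 346 and 395 CPM in Q175 mice (lowest, median and highest library) and 441, 467 and 536 CPM in wild-type mice in brainstem. The groups did not overlap and the change was -0.50 ± 0.059 on the log2 scale (adjusted p = 7.02e-05), 29.1% lower. In hypothalamus/thalamus Mal stood at 150.4, 177 and 223 CPM in Q175 against 241, 346 and 451 CPM in wild type. There too every Q175 library was below every wild-type library, with a change of -0.90 ± 0.12 (adjusted p = 0.00169). Its cerebellar values were 81.3, 96.2 and 108 CPM in Q175 against 127, 137 and 150.0 CPM in wild type. The groups were again apart, with a change of -0.49 ± 0.043 (adjusted p = 1.9e-07). Hippocampus had medians of 184 against 190.4 CPM (change -0.052 ± 0.12, adjusted p = 0.802) and corpus callosum of 2466 against 2447 CPM (change 0.0064 ± 0.16, adjusted p = 0.987), with overlapping groups in both.

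Tspan2 (ENSMUSG00000027858) is a tetraspanin of the oligodendrocyte membrane. Its brainstem values were 156, 166 and 194 CPM in Q175 against 227, 252 and 269 CPM in wild type. The change of -0.56 ± 0.043 (adjusted p = 4.61e-07) was the smallest p among the 30 genes in that region, and the groups did not overlap. In hypothalamus/thalamus it had 113, 117 and 133 CPM in Q175 against 161, 199 and 247 CPM in wild type, a change of -0.76 ± 0.079 (adjusted p = 0.00025), again with separate groups. Cerebellum gave 91.3, 98.2 and 104 CPM in Q175 against 116, 121 and 122 CPM in wild type. The fall there was smaller, -0.29 ± 0.026 (adjusted p = 2.05e-07), but the libraries of each genotype lay close together and the groups did not overlap. Medians were 98.6 against 105 CPM in hippocampus (change -0.11 ± 0.099, adjusted p = 0.501) and 1084 against 1079 CPM in corpus callosum (change -0.017 ± 0.16, adjusted p = 0.965).

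Mobp (ENSMUSG00000032517) is the second most abundant of the 30 genes. In brainstem it had 1697, 2155 and 2359.8 CPM in Q175 against 2369, 2631 and 3099 CPM in wild type. The change was -0.35 ± 0.067 (adjusted p = 0.00443), with a narrow gap between the groups. Hypothalamus/thalamus gave 617, 699 and 874 CPM in Q175 against 888, 1358 and 1837 CPM in wild type, a change of -0.88 ± 0.13 (adjusted p = 0.00235) with separate groups. In cerebellum Mobp had 385, 480.2 and 573 CPM in Q175 against 606, 662 and 767 CPM in wild type, a change of -0.49 ± 0.062 (adjusted p = 3.73e-05), also with separate groups. The medians in hippocampus were 707.3 against 696 CPM (change -0.050 ± 0.14, adjusted p = 0.836) and those in corpus callosum 8732 against 8989 CPM (change 0.022 ± 0.16, adjusted p = 0.953).

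Cldn11 (ENSMUSG00000037625) forms the tight junctions between myelin layers. Brainstem libraries had 174, 219 and 245 CPM in Q175 against 244, 271 and 330.4 CPM in wild type. The groups touched, since the highest Q175 library was above the lowest wild-type library, and the change was -0.38 ± 0.07 (adjusted p = 0.00371). In hypothalamus/thalamus the values were 76.5, 90.6 and 142 CPM in Q175 against 109, 165 and 203 CPM in wild type. Q175 female 2 holds the highest Q175 value there and the groups overlapped, with a change of -0.71 ± 0.14 (adjusted p = 0.0265). Cerebellum had 50.01, 59.3 and 66.7 CPM in Q175 against 71.3, 78.99 and 88.3 CPM in wild type, separate groups and a change of -0.41 ± 0.042 (adjusted p = 1.06e-06). Hippocampal medians were 97.7 against 92.9 CPM (change 0.095 ± 0.14, adjusted p = 0.671) and callosal medians 1237 against 1110.3 CPM (change 0.085 ± 0.17, adjusted p = 0.807). The hypothalamic call of Cldn11 rested on 9 of the 16 libraries, each of which ended it when left out, at changes between -0.72 and -0.65.

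Among the enzymes, Aspa (ENSMUSG00000020774), which splits N-acetylaspartate into acetate for lipid synthesis and aspartate, had 39.2, 45.2 and 51.7 CPM in Q175 against 56.4, 64.2 and 73.6 CPM in wild type in brainstem. All Q175 libraries were below all wild-type libraries and the change was -0.53 ± 0.057 (adjusted p = 2.75e-05). In hypothalamus/thalamus Aspa had 14.5, 17.4 and 23.3 CPM in Q175 against 26.5, 31.99 and 43.6 CPM in wild type, a change of -0.89 ± 0.12 (adjusted p = 0.00169), which is 46.2% lower, with separate groups. Cerebellar values were 11.9, 13.2 and 16.04 CPM in Q175 against 15.5, 19.3 and 23.3 CPM in wild type. The groups overlapped slightly, and the change was -0.51 ± 0.071 (adjusted p = 4.96e-05). In hippocampus the medians were 14.1 against 14.9 CPM (change -0.080 ± 0.14, adjusted p = 0.733) and in corpus callosum 182 against 173 CPM (change -0.030 ± 0.16, adjusted p = 0.933).

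Ugt8a (ENSMUSG00000032854) makes galactosylceramide, the most typical lipid of myelin. It had 151, 165 and 178 CPM in Q175 against 172, 198 and 241 CPM in wild type in brainstem, where the groups overlapped at their edges and the change was -0.31 ± 0.06 (adjusted p = 0.00534). Hypothalamus/thalamus had 42.1, 48.1 and 56.2 CPM in Q175 against 61.3, 86.97 and 125 CPM in wild type, separate groups and a change of -0.85 ± 0.11 (adjusted p = 0.00169). In cerebellum its values were 43.1, 46.9 and 53.7 CPM in Q175 against 55.9, 62.9 and 69.6 CPM in wild type. They too fell into separate groups, with a change of -0.42 ± 0.054 (adjusted p = 2.71e-05). Hippocampal medians of 40.7 against 40.1 CPM (change -0.053 ± 0.13, adjusted p = 0.809) and callosal medians of 438 against 468 CPM (change -0.046 ± 0.15, adjusted p = 0.886) lay close together.

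Fa2h (ENSMUSG00000033579) adds the hydroxyl group to the fatty acids of myelin galactolipids. Its values were 73.9, 85.8 and 96.2 CPM in Q175 against 103, 107 and 131 CPM in wild type in brainstem, with separate groups and a change of -0.39 ± 0.061 (adjusted p = 0.000867). In hypothalamus/thalamus they were 26.3, 29.2 and 35 CPM in Q175 against 36.8, 53.9 and 68.5 CPM in wild type, again separate, with a change of -0.80 ± 0.11 (adjusted p = 0.00169). Cerebellum had 23.6, 28.01 and 30.3 CPM in Q175 against 31.8, 36.7 and 40.7 CPM in wild type. The groups were apart by a small margin and the change was -0.43 ± 0.06 (adjusted p = 4.96e-05). Medians in hippocampus were 27.5 against 26.2 CPM (change 0.010 ± 0.13, adjusted p = 0.966), and in corpus callosum 304 against 295 CPM (change 0.052 ± 0.15, adjusted p = 0.872).

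The other enzymes behaved differently. Gal3st1, which turns galactosylceramide into sulfatide and so acts directly after Ugt8a, was called in 0 brain regions, with changes of -0.059 ± 0.083 in brainstem, -0.073 ± 0.12 in hypothalamus/thalamus and -0.24 ± 0.096 in cerebellum. Enpp6, a choline phosphodiesterase that is high in newly forming oligodendrocytes, was higher in brainstem at 0.37 ± 0.089 (adjusted p = 0.0238). The brainstem call of Enpp6 was lost without any one of 7 libraries, at changes of 0.33 to 0.37.

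**Figure D3:**
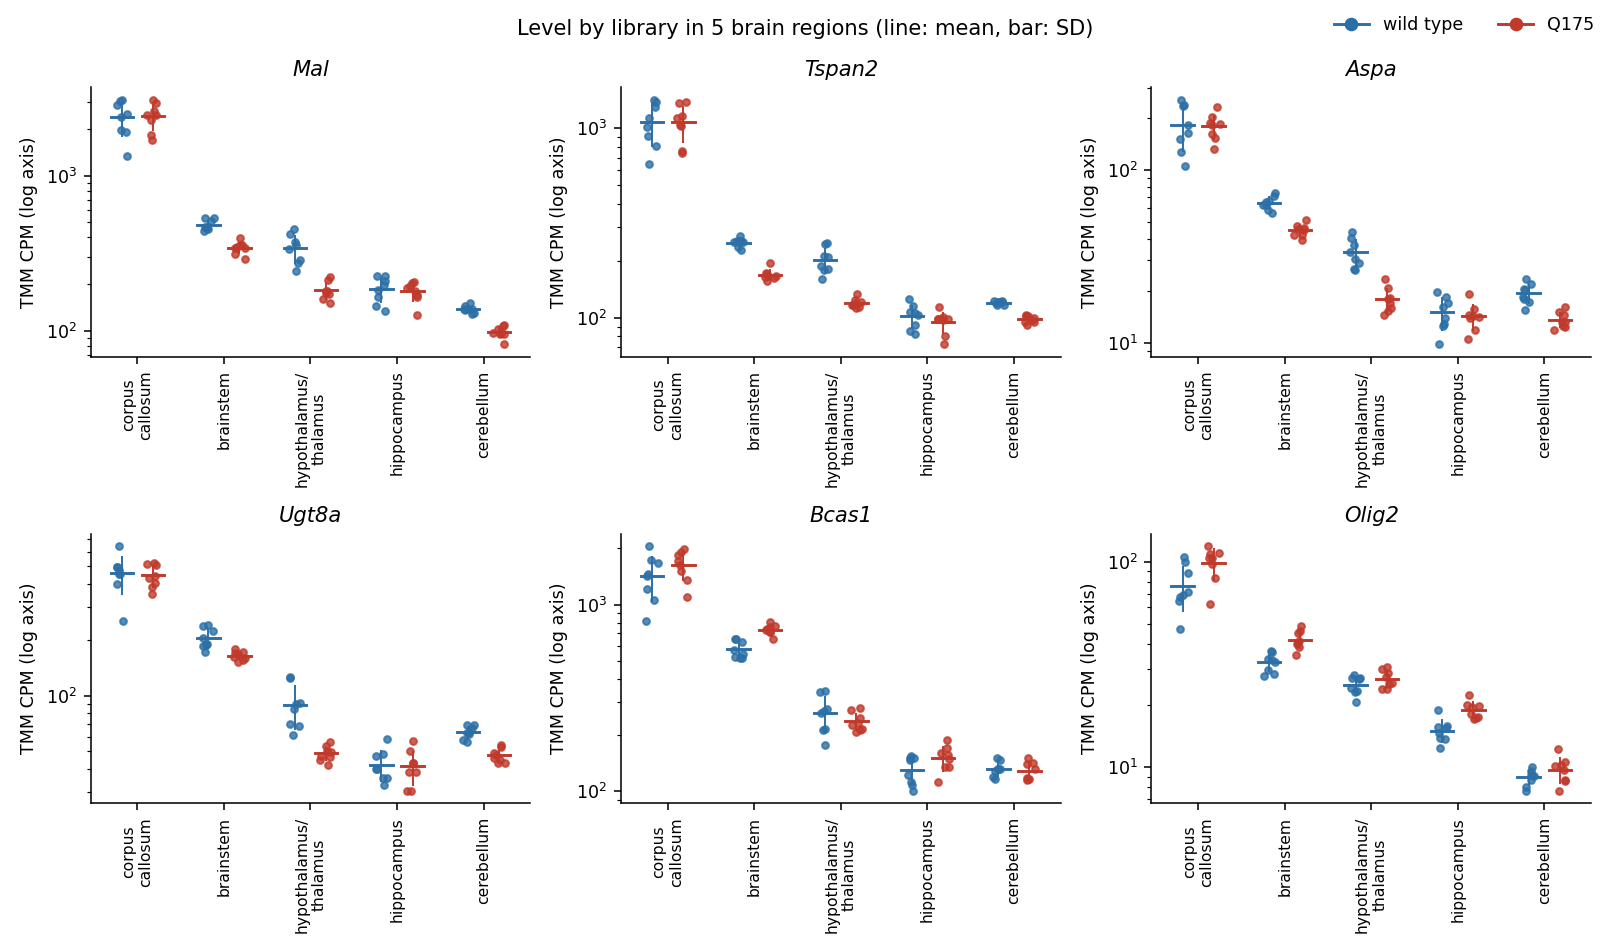
TMM CPM on a log axis of Mal, Tspan2, Aspa, Ugt8a, Bcas1 and Olig2 in each library of 5 brain regions, with the mean (line) and SD (bar) of 8 wild-type (blue) and 8 Q175 (red) libraries. In brainstem, hypothalamus/thalamus and cerebellum the red points of Mal and Tspan2 lie below the blue points, in corpus callosum and hippocampus they mix, and in brainstem those of Bcas1 lie above.

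Olig1 (ENSMUSG00000046160) and Olig2 (ENSMUSG00000039830), paired transcription factors of the oligodendrocyte lineage, rose in brainstem, where the 7 genes fell, and in hippocampus, where 0 of the 7 were called. Olig2 had 35.3, 40.8 and 48.6 CPM in Q175 against 27.8, 32.96 and 36.9 CPM in wild type in brainstem. The groups overlapped in a few libraries and the change was 0.37 ± 0.07 (adjusted p = 0.00478). In hippocampus it had 17.1, 18.9 and 22.6 CPM in Q175 against 12.4, 15.1 and 19.1 CPM in wild type, a change of 0.34 ± 0.074 (adjusted p = 0.0138) with overlapping groups. Its medians were 26.5 against 25.6 CPM in hypothalamus/thalamus (change 0.10 ± 0.074, adjusted p = 0.537), 9.95 against 9.14 CPM in cerebellum (change 0.13 ± 0.081, adjusted p = 0.327) and 104 against 69.9 CPM in corpus callosum (change 0.37 ± 0.16, adjusted p = 0.235). For Olig2 the change was above 0 in each of the 5 regions, and its difference between regions did not pass the test (adjusted p = 0.271, limma voom).

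Olig1 had 140.4, 157 and 185 CPM in Q175 against 109.6, 125 and 146 CPM in wild type in brainstem. The change there was 0.32 ± 0.07 (adjusted p = 0.0149), with overlapping groups. Hippocampal values were 58.2, 78.1 and 91.7 CPM in Q175 against 51.1, 57.2 and 66.3 CPM in wild type. This was its largest change, 0.42 ± 0.086 (adjusted p = 0.0108), and the groups overlapped. Medians were 115 against 100.1 CPM in hypothalamus/thalamus (change 0.22 ± 0.11, adjusted p = 0.392), 36.8 against 37.2 CPM in cerebellum (change 0.0055 ± 0.074, adjusted p = 0.976) and 373 against 269 CPM in corpus callosum (change 0.34 ± 0.14, adjusted p = 0.23).

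Of the other transcription factors, Sox10 and Myrf, which switch on the myelin genes, were called lower in cerebellum by edgeR. Their changes were -0.23 ± 0.06 (adjusted p = 0.0113) and -0.21 ± 0.054 (adjusted p = 0.0133). Neither passed the limma voom fit there (adjusted p = 0.338 and 0.587). In brainstem, where the 7 genes fell, Sox10 had medians of 80.9 against 79.3 CPM (change 0.029 ± 0.056) and Myrf of 177 against 161 CPM (change 0.13 ± 0.06), neither called. Nkx6-2 was called in 0 brain regions, and its exons overlap those of Inpp5a on the opposite strand. Whether the libraries keep strand is not stated, so its counts, like those of Cnp (Dnajc7) and of any other gene with an overlapping neighbour, may hold reads of the other strand.

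Hapln2 (ENSMUSG00000004894), a link protein of the matrix at nodes of Ranvier, had 18.6, 22.04 and 25.6 CPM in Q175 against 22.5, 26.7 and 28.8 CPM in wild type in cerebellum, a change of -0.27 ± 0.058 (adjusted p = 0.00265) with overlapping groups. In hypothalamus/thalamus it had 22.3, 24.9 and 29 CPM in Q175 against 24.4, 35.2 and 51 CPM in wild type, a change of -0.53 ± 0.12 (adjusted p = 0.0486). The hypothalamic groups overlapped, and 12 of the 16 libraries were each needed for the call, with changes of -0.56 to -0.47 when one was absent. By the limma voom fit Hapln2 passed in hypothalamus/thalamus (adjusted p = 0.00923) and did not pass in cerebellum (adjusted p = 0.377). Medians were 91.9 against 87.6 CPM in brainstem (change -0.047 ± 0.083, adjusted p = 0.805), 17.1 against 16.9 CPM in hippocampus (change 0.091 ± 0.13, adjusted p = 0.667) and 197 against 166 CPM in corpus callosum (change 0.21 ± 0.16, adjusted p = 0.483). Gpr37, a receptor of oligodendrocytes, Trf and the matrix protease Adamts4 were called lower in cerebellum by edgeR, at -0.27, -0.20 and -0.17. Their changes in hypothalamus/thalamus, -0.38, -0.37 and -0.51, were not called by edgeR, and the test of the difference between these regions did not pass for any of the 3.

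Of the other 12 membrane proteins, 9 were called lower in cerebellum by edgeR. Mbp was lower in cerebellum, at 1462, 1692 and 1939 CPM in Q175 against 1993, 2141 and 2456 CPM in wild type. The groups did not overlap and the change was -0.37 ± 0.056 (adjusted p = 0.000186), while in brainstem it had medians of 8409 against 8492 CPM and a change of -0.086 ± 0.074 (adjusted p = 0.591). In hypothalamus/thalamus Mbp changed by -0.48 ± 0.13 (adjusted p = 0.125 by edgeR), and it was called lower there by limma voom (adjusted p = 0.0169). The difference between cerebellum and hypothalamus/thalamus passed the test for 0 of the 30 genes. Also lower in cerebellum were Mag, Mog, Cnp, Pllp, Opalin, Ermn, Plekhb1 and Ninj2, with changes from -0.50 (Ninj2, under 2 CPM) to -0.14 (Plekhb1). The cerebellar edgeR calls of Mog, Opalin, Ninj2 and Adamts4 were each lost when any one of 5 to 8 libraries was left out. The edgeR calls of the other 18 genes held without any single library. By the limma voom fit, only Mobp, Mal, Cldn11, Aspa, Ugt8a and Fa2h of the 30 genes passed in cerebellum. None of these 9 membrane proteins did, with adjusted p from 0.0508 (Pllp) to 0.669 (Plekhb1) and 0.0643 for Mbp.

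The remaining 3 were Bcas1, Tmem88b and Gjb1, each called higher in 1 region. Bcas1, a protein of early myelinating cells, was higher in brainstem with 654, 733 and 806 CPM in Q175 against 517, 557 and 653 CPM in wild type. All Q175 libraries were above all wild-type libraries and the change was 0.35 ± 0.06 (adjusted p = 0.00178). Tmem88b was higher in brainstem at 0.19 ± 0.049 (adjusted p = 0.0413), a call that leaving out 1 library ended in 11 of 16 cases, at changes of 0.16 to 0.20. Gjb1, the connexin that links myelin layers, was higher in hippocampus with 7.78, 10.5 and 13.9 CPM in Q175 against 5.32, 8.20 and 9.19 CPM in wild type. The groups overlapped, its change was 0.58 ± 0.15 (adjusted p = 0.0313), and the call was lost without any one of 6 libraries at changes of 0.52 to 0.54. Its medians were 59.6 against 53.8 CPM in brainstem (change 0.12 ± 0.066, adjusted p = 0.411), 18.2 against 19.9 CPM in hypothalamus/thalamus (change -0.023 ± 0.14, adjusted p = 0.945), 13.1 against 15.4 CPM in cerebellum (change -0.19 ± 0.086, adjusted p = 0.149) and 97.1 against 86.9 CPM in corpus callosum (change 0.11 ± 0.15, adjusted p = 0.7).

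Complete separation of the genotypes was counted over the 30 genes. In brainstem 5 of the 30 genes had all Q175 libraries below all wild-type libraries (0.392% of all genes tested) and 1 had all above (0.857%). In hypothalamus/thalamus 6 were wholly below (0.251%) and 0 above (0.0657%), and in cerebellum 7 below (1.74%) and 0 above (1.94%). Hippocampus had 0 in either direction (1.09% below and 0.43% above), and so had corpus callosum (0.0242% and 0.0907%).

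To set the 7 genes against the other 23 inside each library, the mean log2(CPM + 1) of the 23 was taken from that of the 7. The 7 were chosen by their brainstem calls, so this is a description and no test was run. In brainstem the difference was 0.433, 0.480 and 0.587 in Q175 libraries (lowest, median and highest) and 0.961, 0.986 and 1.06 in wild type. Cerebellum had 0.644, 0.705 and 0.764 against 0.911, 0.949 and 1.003. Hypothalamus/thalamus had 0.341, 0.425 and 0.479 against 0.953, 1.04 and 1.17. In these 3 regions no Q175 library reached the wild-type range.

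Hippocampus, where none of the 7 was called, had 0.649, 0.759 and 0.801 in Q175 libraries against 0.916, 0.998 and 1.10 in wild type, and there too the genotypes did not overlap. In corpus callosum the values were 1.12, 1.22 and 1.30 against 1.28, 1.38 and 1.41, with 7 of 8 Q175 libraries below all wild-type libraries. The difference between genotypes came from different sides. In brainstem the mean of the 7 was 0.427 lower in Q175 mice and that of the 23 was 0.0748 higher, while in hippocampus the 7 were 0.0238 lower and the 23 were 0.238 higher. Against the other 23 genes of the same library, the 7 were lower in Q175 mice by their mean in the 4 regions other than brainstem too. In brainstem the choice of the 7 fixed the direction, and it left the genes called higher there among the 23. The other regions come from the same animals, so their values are not independent of that choice.

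**Figure D4:**
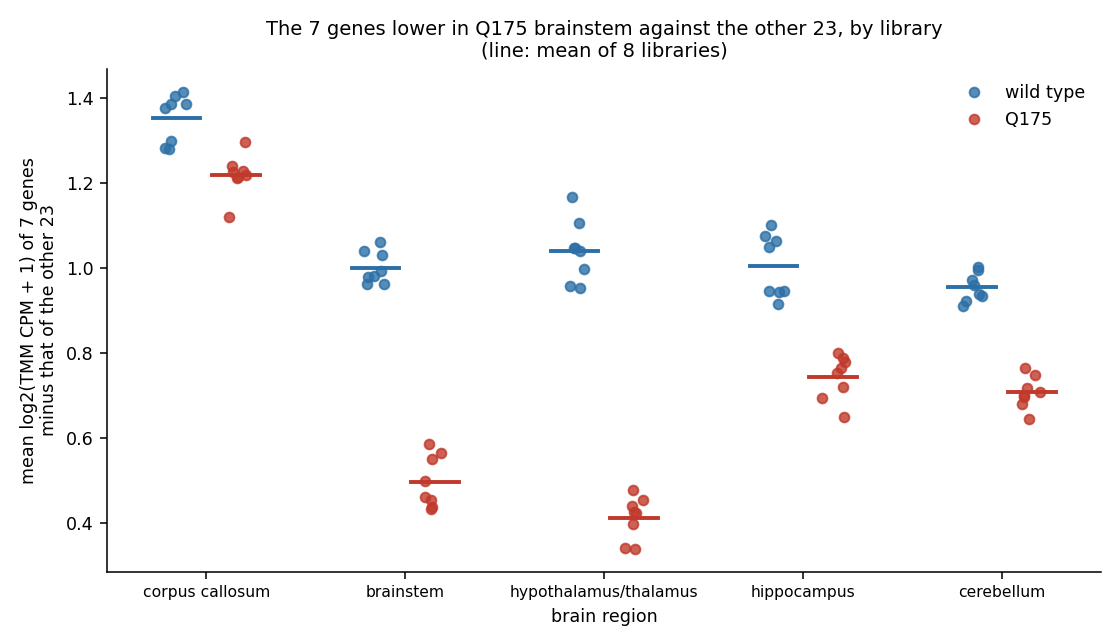
Difference between the mean log2(TMM CPM + 1) of the 7 genes called lower in brainstem and that of the other 23 (y axis) in each library of 5 brain regions (x axis), wild type in blue and Q175 in red, lines for means of 8 libraries. The red points lie below the blue points without overlap in brainstem, hypothalamus/thalamus, hippocampus and cerebellum, and in corpus callosum 1 red point enters the blue range.

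Whether the change differed between regions was tested for each gene in 1 model of the 80 brain libraries, with the correlation of libraries from the same animal (limma voom, F-test). For 19 of the 30 genes it did (adjusted p under 0.05), against 14.2% of all genes tested. The smallest adjusted p values were those of Mal (9.24e-05), Tspan2 (0.000185), Aspa (0.000208), Fa2h (0.000294), Ugt8a (0.000606), Mobp (0.000857) and Cldn11 (0.00121). The largest were those of Enpp6 (0.307), Olig2 (0.271) and Opalin (0.166). With no correlation between libraries of an animal 13 genes passed, and without the 10 libraries whose values fall with transcript length 24 did.

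By pairs of regions, the change of 11 genes was lower in hypothalamus/thalamus than in corpus callosum, with 8.86% of all genes called. Mal differed by -0.94 ± 0.17 (adjusted p = 0.000361) and Aspa by -0.92 ± 0.17 (adjusted p = 0.000544). Between hippocampus and hypothalamus/thalamus 7 genes differed, against 0.154% of all genes, and they were the same 7 called lower in brainstem. Mal differed there by 0.85 ± 0.15 (adjusted p = 0.00166). Cerebellum differed from corpus callosum for 8 genes (12% of all genes) and brainstem for 3, Tspan2, Aspa and Mal (5.51%). Cerebellum and hippocampus differed for 2, Mag and Gjb1 (1.21%). For 0 of the 30 genes did brainstem pass this test against cerebellum (0.694% of all genes), hippocampus (0.656%) or hypothalamus/thalamus (0.424%), cerebellum against hypothalamus/thalamus (1.1%), or hippocampus against corpus callosum (3.57%).

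The sexes were compared by the interaction of sex and genotype (edgeR), and 0 of the 30 genes passed in any of the 5 regions, with 0% of all genes called. The animal codes of each genotype and sex share 1 prefix, whose meaning the labels do not give, so sex and that prefix cannot be told apart. At an unadjusted p under 0.05, 26 of the 30 genes had a lower change in males in hypothalamus/thalamus, against 7.34% of all genes, and 9 had a higher change in males in hippocampus, against 21.7%. Brainstem had 1 such gene (3.19%), and cerebellum (3.34%) and corpus callosum (2.3%) had 0. Summed over the 30 genes, wild-type hypothalamus/thalamus libraries ran from 6102 to 8579 CPM in females and from 8838 to 10889 CPM in males. Those of Q175 mice ran from 5850 to 7513 CPM in females and from 5545 to 6347 CPM in males. The sexes thus lay further apart in wild type than in Q175 mice there.

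In hypothalamus/thalamus the median change of the 7 genes was -0.55 in females and -1.10 in males, and that of the other 23 was 0.11 in females and -0.47 in males. All 7 were below 0 in both sexes there, in brainstem and in cerebellum. In hippocampus the 7 had a median change of -0.27 in females and 0.20 in males, and the other 23 of 0.034 and 0.42. The median change of the 7 was below that of the 23 in each sex in cerebellum, hippocampus and hypothalamus/thalamus, and in brainstem the choice of the 7 fixed that order. Since the regions come from the same animals, the order outside brainstem is not independent of that choice.

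Other genes of the oligodendrocyte and of lipid synthesis were taken from lists chosen by function, with earlier results of these data known. Of all genes tested, 3.07% were called in brainstem, 16.1% in cerebellum, 0.574% in hypothalamus/thalamus, 4.56% in hippocampus and 0.0544% in corpus callosum. These shares are the background for the counts of every list. Of 30 further oligodendrocyte genes, 5 were lower and 7 higher in brainstem, with a median change of 0.091, beside -0.0021 over all genes. The carbonic anhydrase gene Car2 changed by -0.73 ± 0.051 (adjusted p = 2.59e-07), the nuclear cytokine Il33 by -0.70 ± 0.059 (adjusted p = 1.55e-06) and the protease inhibitor Serpinb1a by -0.68 ± 0.079 (adjusted p = 6.45e-05), and Slc45a3, a transporter, by 0.59 ± 0.074 (adjusted p = 0.000129). In hypothalamus/thalamus 4 were lower and 1 higher: Il33 (-1.02 ± 0.09), Car2 (-0.90 ± 0.12), Serpinb1a (-1.01 ± 0.15) and Gjc3 (-0.66 ± 0.10) lower, Slc45a3 (0.67 ± 0.12) higher. Cerebellum had 10 lower and 0 higher, and hippocampus 0 lower and 8 higher, led by Slc45a3 (1.26 ± 0.16) and Anln (0.61 ± 0.11). As with the 30 genes, calls went in both directions in brainstem and in 1 direction in cerebellum and hippocampus. Corpus callosum had 0 calls of 30 by edgeR with 2 at an unadjusted p under 0.05.

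Of 20 genes of precursors and newly formed oligodendrocytes, 18 were tested in brainstem and 0 were lower and 2 higher, Zfp488 at 0.76 ± 0.058 (adjusted p = 4.61e-07) and Sox8 at 0.44 ± 0.048 (adjusted p = 2.97e-05), both transcription regulators of oligodendrocyte formation. Zfp488 was also higher in hypothalamus/thalamus (0.27 ± 0.054) and cerebellum (0.17 ± 0.055), and Sox8 in hippocampus (0.27 ± 0.061). In cerebellum the list gave 1 lower and 3 higher calls of 18, C1ql1 lower at -1.14 ± 0.29 (adjusted p = 0.0131) and Zfp488, Fyn and Gpr17 higher. Hippocampus had 0 lower and 1 higher of 18, and hypothalamus/thalamus 0 lower and 1 higher of 19. The shares of all genes called were 3.07% in brainstem, 16.1% in cerebellum, 4.56% in hippocampus and 0.574% in hypothalamus/thalamus. The cerebellar and hippocampal counts of this list were thus near the background. The median change of this list was 0.13 in brainstem, 0.067 in cerebellum and 0.0070 in hypothalamus/thalamus.

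Cholesterol is made in quantity by myelinating cells and also by astrocytes. Of 25 genes of its synthesis and control, 21 were lower and 0 higher in brainstem, with a median change of -0.31. Insig1, a sensor that restrains the pathway, changed by -0.59 ± 0.058 (adjusted p = 1.03e-05), Cyp51 by -0.46 ± 0.045 (adjusted p = 1.03e-05), Mvd by -0.60 ± 0.064 (adjusted p = 2.75e-05) and Idi1 by -0.44 ± 0.051 (adjusted p = 5.42e-05). Cerebellum had 13 of 24 lower, hippocampus 6 of 24, hypothalamus/thalamus 2 of 25 and corpus callosum 0 of 25, each with 0 higher. The median change of the cholesterol genes was thus lowest in brainstem, whereas that of the 7 genes was lowest in hypothalamus/thalamus (-0.847). Of 24 genes of sphingolipid and very long chain fatty acid synthesis, 2 were lower in brainstem (Fads1 and Acsl3) and 2 in hypothalamus/thalamus (Fads1 and Scd2). In cerebellum 6 were lower and 1 higher, and in hippocampus 0 were lower and 2 higher.

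Markers of other cell types moved with some of these results. Astrocyte genes gave 7 lower and 0 higher calls of 20 in brainstem, 10 and 0 in cerebellum, 5 and 0 in hypothalamus/thalamus and 1 and 1 in hippocampus. Of all genes, 3.07%, 16.1%, 0.574% and 4.56% were called in these regions, in that order. Their summed level was 10531 to 11710.4 CPM in Q175 brainstem against 12136 to 12881 CPM in wild type, and 7964 to 8695 against 9486 to 10339 CPM in hypothalamus/thalamus. Glul, glutamine synthetase, changed by -0.45 ± 0.045 in brainstem and -0.43 ± 0.067 in hypothalamus/thalamus. Of 15 microglia genes 0 were called in brainstem, cerebellum, hypothalamus/thalamus or corpus callosum (1, 0, 0 and 6 at an unadjusted p under 0.05), and general neuron genes gave 0 calls of 15 in brainstem and hypothalamus/thalamus and 7 lower and 6 higher in cerebellum. In hippocampus 1 microglia gene, Tmem119, was called higher at 0.31 ± 0.084 (adjusted p = 0.045), and general neuron genes gave 1 lower and 1 higher call of 15. Of 10 excitatory forebrain neuron genes 3 were lower and 0 higher there, and their summed level was 5442 to 6147 CPM in Q175 hippocampus against 6313 to 7298 CPM in wild type. Choroid plexus genes summed to 4486 CPM in 1 hypothalamus/thalamus library, Q175 male 3, and to at most 118 CPM in the wild-type libraries. The part of these markers in the changes of the 30 genes was not tested.

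In 10 brain libraries the values fell with transcript length by more than 0.1 log2 units per doubling, 3 of them Q175 and 1 wild type in hypothalamus/thalamus, 2 Q175 in hippocampus, 2 Q175 and 1 wild type in corpus callosum, 1 wild type in brainstem and 0 in cerebellum. Without them the calls were 7 lower and 5 higher in brainstem, 7 lower in hypothalamus/thalamus and 3 higher in hippocampus. The median change of the 7 stayed between -0.396 and -0.366 in brainstem, -0.432 and -0.397 in cerebellum and -0.878 and -0.757 in hypothalamus/thalamus over 9 or 10 other ways of processing.

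Outside the brain 12 to 20 of the 30 genes passed the filter on low counts in a tissue. In wild-type mice 7 of the 30 were under 0.2 FPKM in all 6 tissues, 18 reached 1 FPKM in at least 1 and 7 reached 10 FPKM. Trf, which encodes the iron carrier transferrin, had 1371 ± 414 FPKM in gonadal and 1046 ± 493 FPKM in intestinal adipose tissue, and 130.3 ± 42.8 FPKM in skin (n = 6). Aspa had 42.4 ± 5.56 FPKM in brown, 24.9 ± 3.73 in gonadal and 27.98 ± 19.9 in intestinal adipose tissue. The last mean holds 2 libraries that stood above the other 6, wild-type female 2 at 66.7 FPKM and wild-type male 4 at 48.5 FPKM. Fa2h and Gal3st1 had 17.8 ± 6.69 and 19.7 ± 6.16 FPKM in skin, and Plekhb1 had 49.6 ± 9.77 FPKM in gastrocnemius muscle.

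Mbp, which Schwann cells also make, had 11.3 ± 12.1 FPKM in wild-type gastrocnemius, 27.9 ± 12.7 in skin, 23.7 ± 4.97 in intestinal adipose tissue and 1.15 ± 0.229 in heart. Prx, which encodes periaxin of Schwann cells, was at 0.450 to 7.07 FPKM in muscle, 1.26 to 4.33 in skin and 0.354 to 1.25 in intestinal adipose tissue over both genotypes. Mbp was thus higher for its level of Prx in intestinal adipose tissue, where it ran from 14.9 to 30.5 FPKM, than in muscle. In muscle 2 libraries stood above the others, Q175 male 1 at 44.1 FPKM and wild-type female 4 at 39.7 FPKM, while the other 14 had 2.87 to 19.8 FPKM. The same libraries led for Prx (7.07 and 6.88 FPKM), Mal (4.07 and 3.75 FPKM) and Fa2h (0.966 and 0.893 FPKM). Each genotype thus holds 1 muscle library with high values of these 4 genes. Oligodendrocyte genes that Schwann cells lack, such as Mobp, Mog and Opalin, had means of at most 0.0334 FPKM in wild-type muscle, skin and heart.

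Between genotypes, 0 of 18 tested genes were called in intestinal adipose tissue, 0 of 15 in gastrocnemius muscle and 0 of 12 in heart by edgeR and by DESeq2, with 3, 1 and 2 at an unadjusted p under 0.05 (7.77%, 6.3% and 7.82% of all genes). The shares of all genes called there were 0%, 0.0213% and 0.0549%. In brown adipose tissue 1 of 17 was called, against 5.41% of all genes: Trf had 37.7, 115 and 145 CPM in Q175 against 99.7, 229 and 387 CPM in wild type (change -1.06 ± 0.29, adjusted p = 0.0471). The groups overlapped, and the Trf call was lost in 5 of 6 other ways of processing, with changes of -1.07 to -1.01.

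Gonadal adipose tissue had 3 lower and 3 higher of 19, against 32.1% of all genes, a share close to that background. Aspa was lower there with 24.2, 30.04 and 41.2 CPM in Q175 against 31.9, 39.9 and 52.8 CPM in wild type (change -0.43 ± 0.092, adjusted p = 0.00431), and so were Tmem88b (-0.91) and Bcas1 (-0.75). Mal (1.91 ± 0.64, adjusted p = 0.0357), Enpp6 (0.94) and Cnp (0.26) were higher. Q175 males 1, 2 and 3 had 3.77, 13.2 and 8.63 FPKM of Mal, and the 7 wild-type libraries had 0.318 to 1.17. Gjb1 in the same 3 libraries was at 1.77, 10.6 and 7.57 FPKM, against at most 0.347 in wild type. In females alone the change of Mal was 0.23 ± 0.41 (adjusted p = 0.771) and 0 of the genes were called, and in males alone Mal changed by 3.40 ± 0.68 (adjusted p = 0.0174). The call of Mal also ended in 6 of 15 cases when 1 library was left out, at changes of 1.56 to 1.92.

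In skin 3 genes were lower and 1 higher of 20, against 6.53% of all genes. Sox10, which marks Schwann cells and pigment cells there, had 0.926, 1.21 and 1.75 CPM in Q175 against 1.70, 2.80 and 4.19 CPM in wild type (change -1.14 ± 0.24, adjusted p = 0.0228). Bcas1 (-1.33) and Tmem88b (-1.02) were lower and Olig1 (1.11) higher, each at under 5 CPM. The count of 4 fell to 0 without wild-type male 2, to 1 without Q175 female 1, Q175 male 1 or Q175 male 3, and to 2 without Q175 female 4, Q175 male 4 or wild-type female 3.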

How the data were processed

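The authors deposited FPKM values and expected counts (estimated counts per gene, of which 31.4% of the non-zero values were not whole) for 173 libraries. CASAVA 1.8.2 is named in the submitters' processing notes, with aligner, counter, genome build and annotation not given in the sources used here. Symbols were found for 95% of the 38561 identifiers. Counts were rounded and tested per tissue with edgeR 4.0.16 (TMM, filterByExpr, robust quasi-likelihood test with sex as a term), with p-values adjusted by Benjamini-Hochberg over all genes tested and called under 0.05. Differences between brain regions were tested with limma 3.58.1 (voom, correlation of an animal's libraries 0.0875), and wild-type regions with edgeR and the animal as a term. DESeq2 1.42.0, RLE size factors, no filter, no sex term, limma on log2(FPKM + 1), a length correction and leaving out each library were alternatives. The scripts were tested on simulated data. R 4.3.3, Python 3.11.15, pandas 2.3.3 and matplotlib 3.10.9 were used. Values are given in every group for genes called in at least 2 brain regions, and for the 3 smallest p in a region with a called gene. The members and all gene lists were chosen with earlier results of these data known. Each library of a tissue comes from a different animal, so p-values of the fits per tissue measure the spread between animals. The wild-type region tests compare regions within animals, and the limma voom tests hold several libraries of each animal.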

Additional observations from a re-analysis of the deposited data

Results flagged for a closer look

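In 3 of 110 groups of libraries checked, 1 library stood far from the other 7 of its group, where chance gives about 1 group in 20. Tspan2 in brainstem was at 193.731 CPM in Q175 female 3, where the others of its group had 156.0 to 173 CPM, and still below the lowest wild-type library at 227 CPM. Cldn11 in hypothalamus/thalamus was at 141.513 CPM in Q175 female 2, against 76.5 to 106 CPM in the others, and this library overlapped the wild-type range. Olig1 in corpus callosum was at 254.224 CPM in Q175 male 4, where the others had 350.5 to 433 CPM.

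For 9 of the 11 genes checked (the 7, Hapln2, Olig1, Olig2 and Gjb1), the change between genotypes differed between the 5 brain regions (limma voom, F-test over 80 libraries). Adjusted p was 9.24e-05 for Mal, 0.000185 for Tspan2, 0.000208 for Aspa, 0.000294 for Fa2h, 0.000606 for Ugt8a, 0.000857 for Mobp, 0.00121 for Cldn11, 0.0064 for Hapln2 and 0.0214 for Gjb1. For the first 7 the change was lowest in hypothalamus/thalamus and near 0 in corpus callosum, and for Gjb1 it was highest in hippocampus (0.58 ± 0.15) and lowest in cerebellum (-0.19 ± 0.086).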

How the results depend on the processing

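Of the changes that passed the test, 0 reversed under the alternatives tried. The callosal changes of Aspa and Tspan2, which did not pass, went from below 0 to 0.02 and 0.01 with voom over the 5 brain regions. Counts of genes called moved by over 1.5 times in these cases: brainstem to 4, cerebellum to 6 and corpus callosum to 2 with voom over the 5 brain regions; hypothalamus/thalamus to 1 and skin to 0 with the replicate number as a block; skin to 7 with DESeq2; gonadal adipose tissue to 0 in females only; and brown adipose tissue to 2 with DESeq2 and to 0 with RLE size factors, no filter, no sex term or limma on FPKM. With the block the count was 10 in brainstem, 21 in cerebellum, 3 in hippocampus, 0 in corpus callosum, 1 in brown and 5 in gonadal adipose tissue. Same-numbered libraries deviated together (correlation over 0.1) in 1 to 4 of 8 pairs per brain region, so the numbers were not taken to pair animals. Leaving out 1 library gave 10 to 12 calls in brainstem, 18 to 22 in cerebellum, 2 to 4 in hippocampus, 6 to 10 in hypothalamus/thalamus, 0 in corpus callosum, 5 to 8 in gonadal adipose tissue and 0 to 4 in skin. The cause was not tested. The alternatives restricted to gonadal adipose tissue and skin were chosen after seeing the data. In cerebellum 0 libraries fell with length, so that alternative gave no value there. In corpus callosum the standard errors, 0.12 to 0.18 on the log2 scale, limit what could be called.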

Other observations

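Intestinal adipose tissue held the largest number of the 30 genes at 1 FPKM or more outside the brain, 16, against 12 in skin, 10 in gonadal adipose tissue, 7 in gastrocnemius muscle and 6 in brown adipose tissue and in heart. Of the 16, Gjb1 and Gal3st1 reached 1 FPKM by their mean through 2 libraries: wild-type female 2 and wild-type male 4 had 6.48 and 5.20 FPKM of Gjb1, where the other 6 had at most 0.166, and 4.65 and 3.24 FPKM of Gal3st1, where the others had at most 0.341. In heart Mal was the highest of the myelin membrane genes at 5.88 ± 1.14 FPKM (mean ± SD, n = 8), above Mbp at 1.15 ± 0.229 FPKM, while in corpus callosum Mbp was at 10902 ± 2794 and Mal at 845 ± 203 FPKM. Of the 30 genes, 4 were higher in some tissue outside the brain than in hippocampus.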
